A study of Mus musculus with 12 samples.

Results

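The EGF receptor family was followed through 10 genes of the 45859 listed in each deposited table, taken as the rows whose gene symbol was Egfr, Erbb2 or Erbb3 (receptors), Hbegf, Areg, Ereg, Tgfa or Btc (ligands), or Errfi1 or Lrig1 (inhibitors of the receptors). They were measured in lens epithelial cells (LCs), the cells that stay attached to the lens capsule when the lens fiber cells are removed, as in cataract surgery. Capsules with their LCs were taken from adult mice 2 months old, either at once (0 h) or 24 h post cataract surgery (PCS). WT libraries came from C57BL/6 mice. The β8ITG-cKO libraries came from mice with a floxed Itgb8 allele and the MLR10-Cre transgene, which is active in lens cells, on a mixed C57BL/6 and 129S1/Sv background, so genotype and strain cannot be told apart. Each of the 4 conditions had 3 libraries, described as biological replicates and each made from pooled capsules, for 12 libraries in all.

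Receptors of the EGF family are tyrosine kinases that pair on the cell surface when a ligand binds and then signal through the RAS and ERK kinases. The ligands are made as membrane-bound precursors that proteases such as ADAM17 cut free, and they act on the same cell or its neighbours. Errfi1 and Lrig1 encode proteins that restrain the active receptors, Errfi1 from inside the cell and Lrig1 at the membrane, and EGF signaling is known for its part in epithelial wound closure.

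All values are FPKM, fragments scaled by transcript length and by the mapped total of the library, so levels can be compared between genes. Summed FPKM ran from 446531 to 740140 per library, the 10 highest genes held 36.0% to 49.6% of the sum, and the depth is unknown beyond relative depths of 0.87 to 1.09. The 8 genes of the lens epithelium list were detected, with summed levels of 10561 to 15282 FPKM at 0 h and 3361 to 5728 FPKM at 24 h. Cryab made up most of that sum, with means of 11600 and 4550 FPKM in WT, whereas Pax6 stood at 90.5 and 78.7 FPKM and Gja1 at 111 and 107 FPKM. Itgb8 stood at 4.58 to 7.31 FPKM in β8ITG-cKO and 7.26 to 10.8 FPKM in WT libraries at 0 h, and at 9.28 to 11.8 and 8.38 to 9.58 FPKM at 24 h, but a level over the whole gene does not check the loss of the floxed part. In bulk RNA, fewer cells of a type and less RNA per cell cannot be told apart. A library of WT 24 h, replicate 3, stood apart from the other WT 24 h libraries for several of the 10 genes, and results that rest on it are given with and without it.

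At 0 h in WT LCs the 10 genes spanned a wide range of levels. Hbegf was highest with 40.6 ± 8.03 FPKM (SD, n = 3), followed by Lrig1 at 24.7 ± 3.40, Errfi1 at 9.08 ± 1.69, Egfr at 6.58 ± 0.779, Erbb2 at 3.42 ± 0.0275 and Tgfa at 1.38 ± 0.105 FPKM. Neighbours in that order did not overlap between libraries down to Tgfa and Btc, while Btc, Erbb3, Ereg and Areg, all with means of 0.357 FPKM or less, overlapped with their neighbours. At 24 h in WT, Lrig1 and Errfi1 overlapped, with means of 27.2 and 26.4 FPKM. In β8ITG-cKO LCs at 0 h, Lrig1 was highest at 33.8 ± 0.930 FPKM and Hbegf second at 22.0 ± 2.87 FPKM. At 24 h PCS in β8ITG-cKO, Hbegf was again highest, and Btc stood above Tgfa, with means of 3.55 and 2.47 FPKM and no overlap between their libraries.

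**Figure D1:**
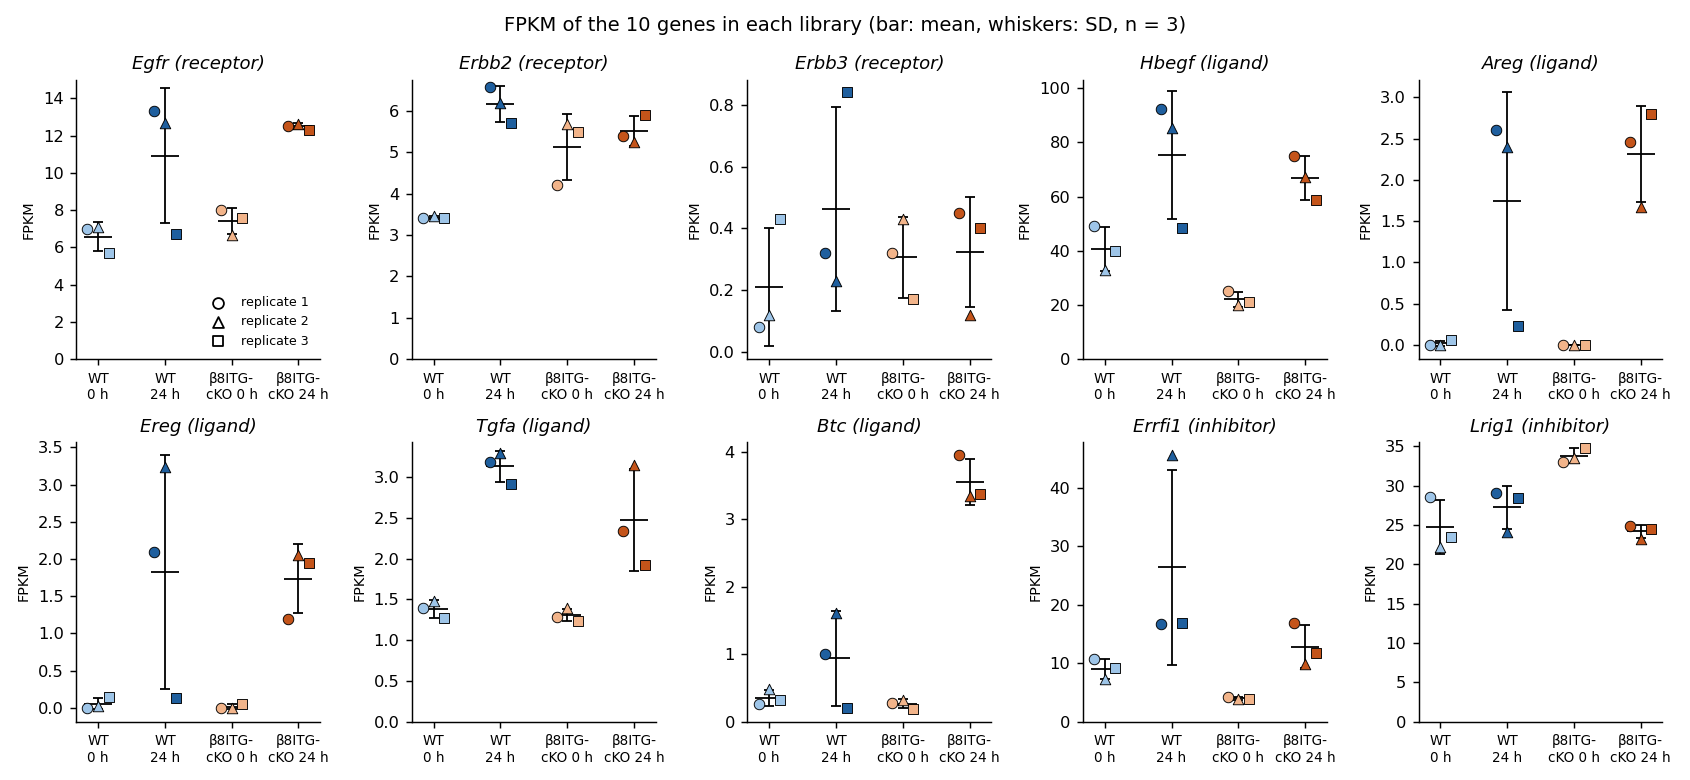
FPKM (vertical axes, each starting at or near 0) of the 10 genes in the 12 libraries, by condition, with a symbol for each replicate number, the mean as a bar and the SD as whiskers (n = 3). Replicate 3 of WT 24 h (dark blue square) lay below the other WT 24 h libraries for Egfr, Hbegf, Areg, Ereg and Btc, and Btc reached 3.35 to 3.95 FPKM in β8ITG-cKO 24 h against at most 1.61 FPKM in any other library.

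The first question was how the family responded to surgery in WT LCs. Between 0 h and 24 h PCS, Erbb2, Hbegf, Areg, Tgfa and Errfi1 rose in WT. These were 5 of 9 genes tested, where the test was limma-trend on log2(FPKM + 1) with an adjusted p of at most 0.05 over all genes. Of all 15146 genes tested, 29.7% passed and 20.9% were higher. Erbb3 had a mean under the filter of 0.5 FPKM and was not tested, while Areg, Ereg and Btc entered the test through their 24 h levels.

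Among the receptors, Egfr, which binds all of the 5 ligands, was at 6.97, 7.09 and 5.68 FPKM in replicates 1 to 3 of WT 0 h and at 13.3, 12.7 and 6.74 FPKM in those of WT 24 h. The first pair of 24 h libraries stood above every 0 h library, and the third lay within the 0 h range. The log2 difference of 0.61 ± 0.25 (SE) did not pass (adjusted p = 0.102). Without replicate 3 of WT 24 h it was 0.89 with an adjusted p of 0.00617. Erbb2, the receptor without a ligand of its own that pairs with the others, was at 3.40, 3.45 and 3.40 FPKM at 0 h and 6.57, 6.20 and 5.71 FPKM at 24 h. The 0 h libraries were nearly equal and all 24 h libraries lay above them, a rise of 0.70 ± 0.14 on the log2 scale (adjusted p = 0.00869). Erbb3, whose kinase is weak and which relies on its partners, ranged from 0.08 to 0.84 FPKM over the 12 libraries with overlap between all conditions.

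Hbegf, which encodes heparin-binding EGF-like growth factor, was at 49.0, 33.0 and 39.9 FPKM in WT 0 h and at 92.5, 85.5 and 48.5 FPKM in WT 24 h. Only replicate 3 of 24 h fell inside the 0 h range. The log2 difference was 0.84 ± 0.27 (adjusted p = 0.0475), and it was 1.13 without that library (adjusted p = 0.00569). With libraries rescaled to the same median, which took the median of all genes from 0.16 to -0.04, the value was 0.59 and no longer passed (adjusted p = 0.114). It also did not pass without any 1 of the other 5 libraries, with an adjusted p of up to 0.141, or with no filter (0.117).

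Areg (amphiregulin) was listed at 0 in replicates 1 and 2 of WT 0 h and at 0.06 FPKM in replicate 3, against 2.60, 2.40 and 0.23 FPKM in WT 24 h. All 24 h libraries lay above all 0 h libraries, replicate 3 by little. On the log2(FPKM + 1) scale, which understates changes of low genes, Areg rose by 1.27 ± 0.40 (adjusted p = 0.0449), or by 1.78 without replicate 3 of WT 24 h (adjusted p = 0.00125). It did not pass without any 1 of the other 5 libraries (adjusted p = 0.0956 to 0.144), with no filter on low values (0.118) or with the replicate block (0.0595). Ereg (epiregulin) was at 0, 0.03 and 0.14 FPKM at 0 h, then at 2.1, 3.24 and 0.13 FPKM at 24 h. Its replicate 3 at 24 h lay within the 0 h range, and the difference of 1.22 ± 0.45 did not pass (adjusted p = 0.0739) until that library was left out (1.78, adjusted p = 0.00206).

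Tgfa, which encodes the EGF receptor ligand TGF-α, was the most even of the ligands, with 1.40, 1.48 and 1.27 FPKM at 0 h and 3.18, 3.29 and 2.92 FPKM at 24 h. The groups were well apart, and Tgfa rose by 0.79 ± 0.15 (adjusted p = 0.00733). Btc (betacellulin), a ligand of both Egfr and Erbb4, was at 0.26, 0.49 and 0.32 FPKM at 0 h and 1.01, 1.61 and 0.20 FPKM at 24 h. Its groups overlapped through replicate 3 and the difference of 0.45 ± 0.29 did not pass (adjusted p = 0.272), while without that library it was 0.76 (adjusted p = 0.0327).

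For the inhibitors, Errfi1 was at 10.7, 7.32 and 9.22 FPKM in WT 0 h and at 16.8, 45.7 and 16.9 FPKM in WT 24 h. Every 24 h library lay above the 0 h libraries, and replicate 2 far above the rest. Errfi1 rose by 1.30 ± 0.37 (adjusted p = 0.033), by 0.84 without that replicate 2 (adjusted p = 0.0263), and it did not pass after rescaling (1.06, adjusted p = 0.0555), with no filter (0.0994), with the replicate block (0.0614) or without any 1 of the WT 0 h libraries (up to 0.0965). Lrig1 was at 28.6, 22.2 and 23.4 FPKM at 0 h and 29.1, 24.1 and 28.5 FPKM at 24 h, overlapping groups whose difference of 0.14 had a 95% interval of -0.22 to 0.49.

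Leaving out replicate 3 of WT 24 h took the number of genes that passed from 5 to 8 of 9, and the 8 held all of the first 5. The number was 2 without any 1 of the WT 0 h libraries and 3 without replicate 1 or 2 of WT 24 h, and Erbb2 and Tgfa passed in all 6 of these fits. In that library the epithelial keratins Krt15 and Krt5 stood at 46.4 and 6.88 FPKM, against at most 4.03 and 3.53 FPKM in the other WT 24 h libraries, while the corneal keratin Krt12 was listed at 0. In the same library the 10 highest genes held 44.7% of summed FPKM, against 36.0% and 36.5% in the other WT 24 h libraries. The part of other cells, or of this makeup, in its low EGF ligand levels was not tested. Macrophage markers (8 genes, all detected) summed to 7.59 to 13.4 FPKM at 0 h and 37.5 to 56.9 FPKM at 24 h over both genotypes. Itgam, Cd68 and Cd14 rose in both, while Csf1r went from a mean of 2.11 to 1.84 FPKM in WT and from 1.77 to 2.19 FPKM in β8ITG-cKO, and Adgre1 stayed under 0.5 FPKM on average in each condition. Neutrophil markers (8 genes, 5 detected) summed to at most 1.41 FPKM at 0 h and to 12 to 64.4 FPKM at 24 h. The part of either cell type in the changes over time was not tested.

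In β8ITG-cKO LCs over 24 h PCS, 7 genes rose (Egfr, Hbegf, Areg, Ereg, Tgfa, Btc and Errfi1) and Lrig1 fell, so 8 of 9 tested genes passed. Of the 15237 genes tested, 46.1% passed, 35.4% higher and 10.7% lower. Areg, Ereg and Btc reached the filter only through their 24 h levels, so once tested they could stand only as higher. The median difference of all genes was 0.23 as deposited and 0.00 after rescaling. Marker sums of other cells moved in the same libraries, for photoreceptors from 191 to 351 FPKM at 0 h to 908 to 1060 FPKM at 24 h, and for red cells from 6.52 to 15.8 FPKM to 87.4 to 195 FPKM. Lens fiber markers (9 genes, all detected) went from sums of 5837 to 6353 FPKM to 888 to 952 FPKM, and in WT from 4029 to 5410 FPKM to 780 to 1535 FPKM. Their part in the changes of the 8 genes was not tested.

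Egfr went from 8.01, 6.65 and 7.55 FPKM to 12.5, 12.6 and 12.3 FPKM, with the 24 h libraries close together and above all of the 0 h libraries. It rose by 0.69 ± 0.10 (adjusted p = 0.00109). Erbb2 was at 4.21, 5.67 and 5.48 FPKM at 0 h, then at 5.39, 5.24 and 5.91 FPKM at 24 h, overlapping groups. The difference was 0.10 with a 95% interval of -0.20 to 0.39 as deposited, and -0.16 after rescaling.

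Hbegf was at 25.2, 19.8 and 20.9 FPKM in β8ITG-cKO 0 h and at 75.0, 67.0 and 58.5 FPKM in β8ITG-cKO 24 h. The groups were far apart, with a mean 3.04 times higher at 24 h, and Hbegf rose by 1.56 ± 0.13 (adjusted p = 8.73e-05). Areg was listed at 0 in all 3 libraries of 0 h and stood at 2.46, 1.67 and 2.80 FPKM at 24 h (log2 difference 1.71 ± 0.16, adjusted p = 0.000158). Ereg was listed at 0 in a pair of 0 h libraries and at 0.05 FPKM in the third, against 1.20, 2.06 and 1.94 FPKM at 24 h (1.41 ± 0.16, adjusted p = 0.000395). Both ligands were thus near or at 0 at 0 h and present in every library of 24 h.

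Btc had the largest rise of the 9 genes in β8ITG-cKO on the log2(FPKM + 1) scale. It was at 0.28, 0.32 and 0.19 FPKM at 0 h, then at 3.95, 3.35 and 3.37 FPKM at 24 h, a mean 13.5 times higher, with a log2 difference of 1.85 ± 0.13 (adjusted p = 3.7e-05). Tgfa was at 1.29, 1.39 and 1.24 FPKM and then at 2.34, 3.15 and 1.92 FPKM, groups that did not overlap. It rose by 0.58 ± 0.15 (adjusted p = 0.0175), but by 0.38 after rescaling, which did not pass (adjusted p = 0.0929), and it passed in 4 of 6 fits that each left out 1 library.

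Errfi1 was at 4.28, 3.95 and 3.84 FPKM at 0 h, then at 16.9, 9.80 and 11.8 FPKM at 24 h. No library overlapped, and Errfi1 rose by 1.43 ± 0.18 (adjusted p = 0.000578). Lrig1 went the other way, from 33.0, 33.6 and 34.8 FPKM to 24.8, 23.3 and 24.5 FPKM. The libraries of each time were within a narrow range, and Lrig1 fell by 0.47 on the log2 scale (SE 0.08, adjusted p = 0.0029). By the size criteria of the study's methods, which also ask that the fold and the difference in FPKM both exceed 2 and that 1 group reach 2 FPKM, 4 of the 9 genes were called in β8ITG-cKO (Hbegf, Areg, Btc and Errfi1) and 1 in WT (Errfi1), against 15.1% and 14.3% of all genes tested.

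The levels also showed how far a single gene made up the family's RNA. Over the 7 ligand genes of the EGF receptor (the 5 above with Egf and Epgn), summed FPKM ran from 35.3 to 51.1 in WT 0 h, 52.2 to 101 in WT 24 h, 21.7 to 27.0 in β8ITG-cKO 0 h and 68.8 to 85.2 in β8ITG-cKO 24 h. Hbegf held 85.1% to 95.9% of that sum in the 12 libraries. The share of Btc had a mean of 1.02% in WT 24 h and 4.62% in β8ITG-cKO 24 h, where it ran from 4.33% to 4.90%. Among the 4 receptors, Egfr had a mean share of 48.2% in WT 0 h, 58.0% in WT 24 h, 41.0% in β8ITG-cKO 0 h and 63.3% in β8ITG-cKO 24 h. Erbb4 is a receptor whose ligands include neuregulins and betacellulin. It held 25.2% and 29.0% in the 0 h conditions and 5.39% and 7.13% in the 24 h conditions.

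**Figure D2:**
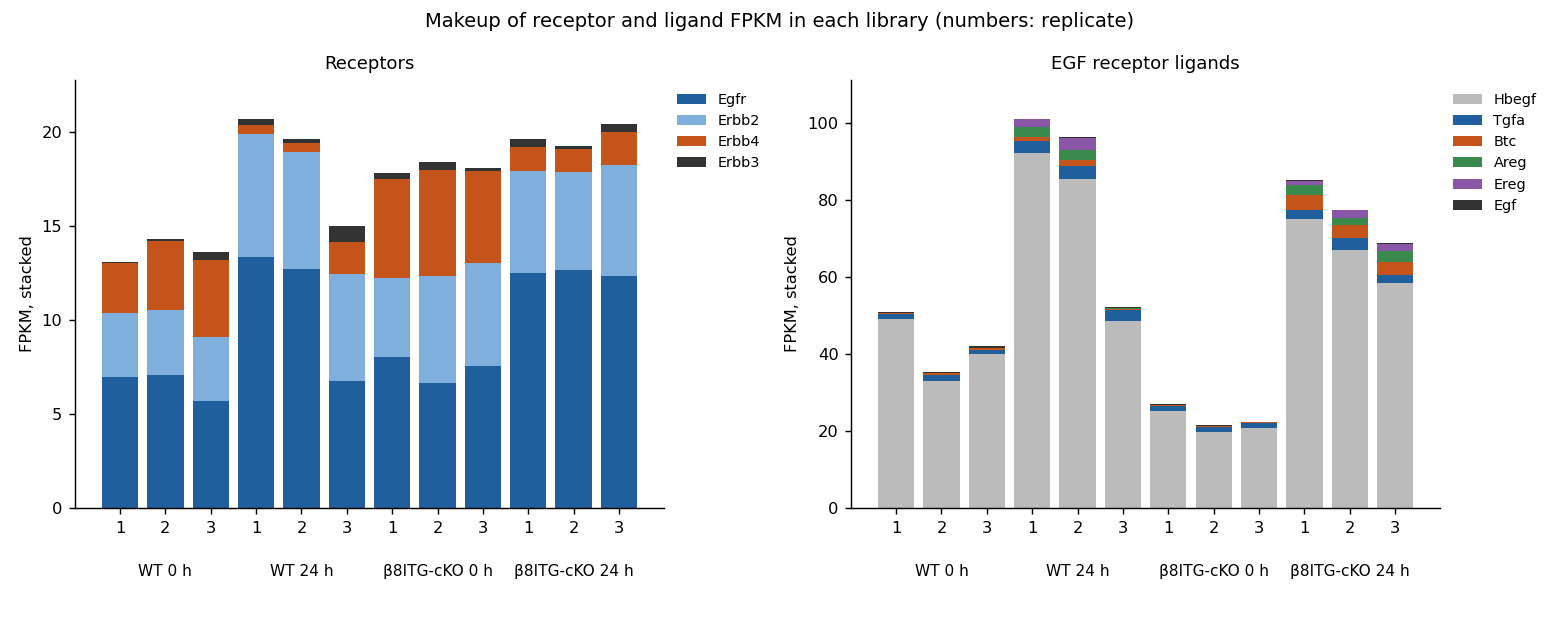
Stacked FPKM (vertical axes) of the 4 receptors (left) and of the EGF receptor ligands (right) in each library, with replicate numbers and conditions along the horizontal axes. Epgn, at most 0.09 FPKM, is not drawn. Hbegf filled 85.1% to 95.9% of each ligand bar, and the Erbb4 part shrank from a mean of 25.2% to 5.39% in WT and from 29.0% to 7.13% in β8ITG-cKO.

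The second question was whether the genotypes differed before the response. At 0 h, Hbegf and Errfi1 were lower in β8ITG-cKO than in WT, and 2 of 6 tested genes passed. Of 14708 genes tested, 6.94% passed and 2.75% were lower. Areg, Ereg, Btc and Erbb3 were under the filter. Hbegf was at 19.8 to 25.2 FPKM in β8ITG-cKO and 33.0 to 49.0 FPKM in WT, with no overlap, a log2 difference of -0.85 ± 0.16 (adjusted p = 0.026). Errfi1 was at 3.84 to 4.28 FPKM against 7.32 to 10.7 FPKM, also apart, with a difference of -0.99 ± 0.15 (adjusted p = 0.0126).

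Erbb2 and Lrig1 were higher in every β8ITG-cKO 0 h library than in any WT 0 h library. Their differences of 0.46 ± 0.13 and 0.44 ± 0.12 did not pass (adjusted p = 0.0814 and 0.0635), and 18% of all genes tested were likewise higher without overlap. Egfr differed by 0.15 with a 95% interval of -0.14 to 0.44 and Tgfa by -0.05 with an interval of -0.35 to 0.26. Leaving out 1 library in turn kept the sign of the Hbegf and Errfi1 differences, with adjusted p up to 0.106 for Hbegf and 0.0711 for Errfi1, both without replicate 3 of β8ITG-cKO 0 h, where 0 of 6 genes passed and 4 had an unadjusted p under 0.05. Without replicate 1 or 3 of WT 0 h or replicate 2 of β8ITG-cKO 0 h 1 gene passed, and in 1 fit over all 12 libraries Errfi1 did not (adjusted p = 0.0899). Markers of red cells (6 genes, all detected) summed to 6.52 to 15.8 FPKM in β8ITG-cKO 0 h and 68.0 to 153 FPKM in WT 0 h, and their part in these differences was not tested.

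At 24 h PCS, Btc was the gene that passed between the genotypes, under some of the settings tried. It was at 3.95, 3.35 and 3.37 FPKM in β8ITG-cKO and 1.01, 1.61 and 0.20 FPKM in WT, groups that did not overlap, with means of 3.55 and 0.941 FPKM. The log2 difference was 1.30 ± 0.28 with a 95% interval of 0.65 to 1.95 (adjusted p = 0.0353). Of 9 genes 1 passed, where 6.29% of the 15366 genes tested passed and 5.64% were higher. Without replicate 3 of WT 24 h the difference was 0.99 and still passed (adjusted p = 0.0263). It did not pass without replicate 1 of WT 24 h or without any 1 of the β8ITG-cKO 24 h libraries, with an adjusted p of up to 0.127, nor with a pseudocount of 0.1 (adjusted p = 0.0865) or 0.01 (0.107). It likewise did not pass with no filter (0.104), a filter at 2 FPKM (0.0569) or the replicate block (0.0536), while it passed after rescaling (0.0398) and in 1 fit over the 12 libraries (0.00503).

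Markers of other cell types differed between the same libraries. Photoreceptor markers (10 genes, all detected) summed to 908 to 1060 FPKM in β8ITG-cKO 24 h and 78.2 to 147 FPKM in WT 24 h. Neutrophil markers summed to 12 to 34.7 FPKM in β8ITG-cKO 24 h and 45.5 to 64.4 FPKM in WT 24 h, with Ly6g, Mpo and Elane listed at 0 in all libraries. The part of photoreceptors and of neutrophils in the Btc difference was not tested.

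The other 8 genes did not pass at 24 h, which does not show that they were equal. Egfr differed by 0.23 with a 95% interval of -0.32 to 0.79, and Hbegf by -0.13 with an interval of -0.71 to 0.46. Errfi1 had the lowest value, -0.86 with an interval of -1.77 to 0.05, and rested in part on the WT library at 45.7 FPKM, without which it was -0.40. For Areg and Ereg the values were 0.41 and 0.14, and both turned negative (-0.10 and -0.42) without replicate 3 of WT 24 h. Erbb2, Tgfa and Lrig1 differed by -0.14, -0.26 and -0.16.

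**Figure D3:**
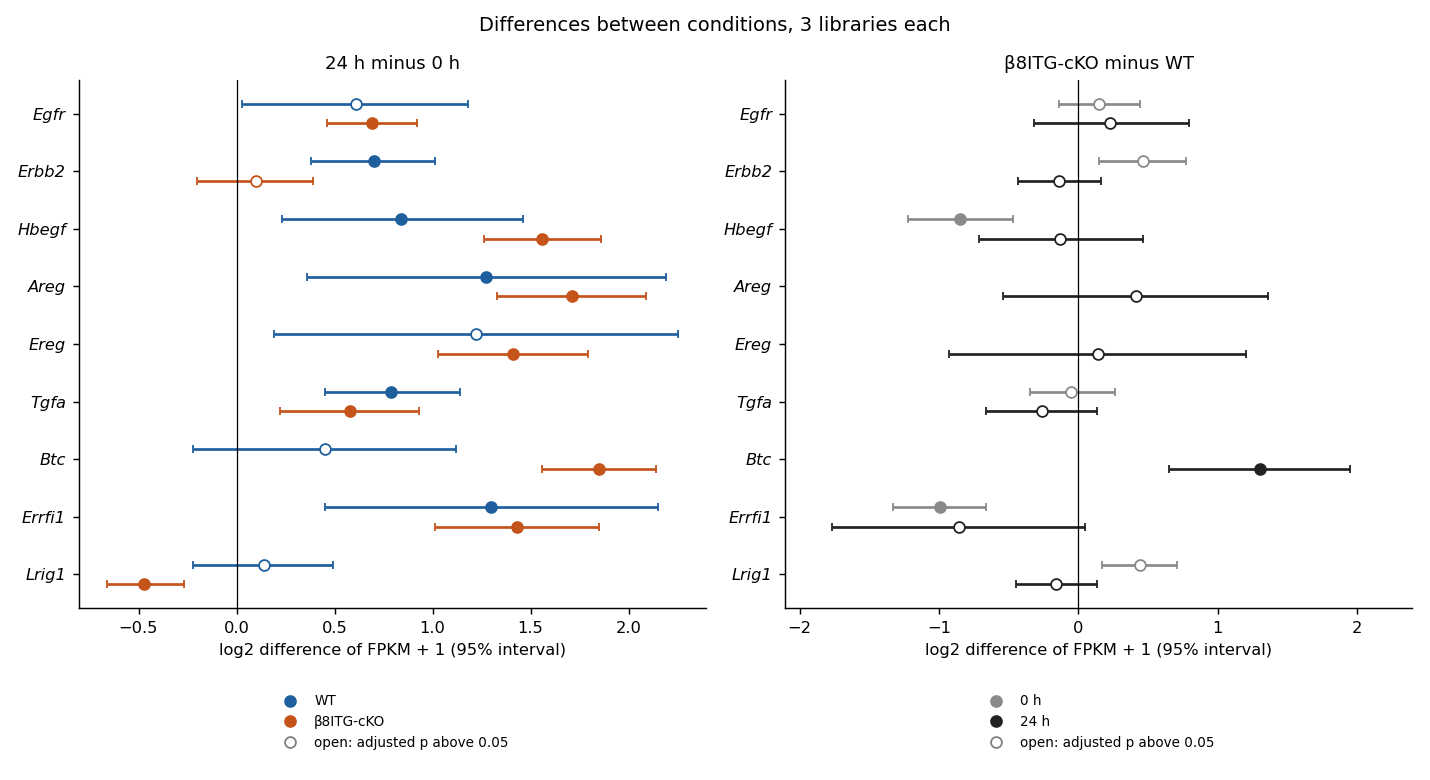
Log2 differences of FPKM + 1 (horizontal axes) with 95% intervals for the 9 tested genes, left 24 h minus 0 h in WT (blue) and β8ITG-cKO (orange), right β8ITG-cKO minus WT at 0 h (grey) and 24 h (black). Filled points passed an adjusted p of 0.05; at 24 h only Btc did so on the right, at 1.30, and genes under the filter at 0 h have no grey point.

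Whether the change over time differed between the genotypes was tested as an interaction in 1 fit over the 12 libraries. Btc, Lrig1 and Erbb2 passed, 3 of 9 genes, where 9.39% of 15262 genes tested did, 6.83% with a higher log2 difference over time in β8ITG-cKO and 2.56% with a lower one. The change of Btc was 1.40 ± 0.33 larger in β8ITG-cKO (adjusted p = 0.0226). For Lrig1 the change was lower in β8ITG-cKO by 0.60, an interaction of -0.60 ± 0.16 (adjusted p = 0.0396), and for Erbb2 likewise by -0.60 ± 0.17 (adjusted p = 0.0472). For Erbb2 the means of WT and β8ITG-cKO were 3.42 and 5.12 FPKM at 0 h, then 6.16 and 5.51 FPKM at 24 h. Lrig1 stood at 24.7 and 33.8 FPKM at 0 h, then at 27.2 and 24.2 FPKM at 24 h. Hbegf, with a change 0.72 ± 0.32 larger in β8ITG-cKO, did not pass (adjusted p = 0.192), nor did the other 5 genes. Of the 12 fits that each left out 1 library, Btc passed in 9 and Lrig1 and Erbb2 in 2 each, and no such fit had more than 2 genes passing. All of these comparisons share libraries and are not independent of each other.

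Of the other genes of the family, Erbb4 fell and Nrg1, which encodes a ligand of Erbb3 and Erbb4, rose over 24 h in both genotypes. Erbb4 was at 2.65, 3.64 and 4.05 FPKM in WT 0 h and 0.46, 0.48 and 1.72 FPKM in WT 24 h, groups well apart (-1.29 ± 0.28, adjusted p = 0.0121). In β8ITG-cKO it went from 5.23, 5.62 and 4.88 FPKM to 1.26, 1.21 and 1.76 FPKM (-1.38 ± 0.13, adjusted p = 0.000159). Nrg1 rose by 1.44 ± 0.35 in WT (adjusted p = 0.0184) and by 1.81 ± 0.14 in β8ITG-cKO (adjusted p = 6.12e-05), reaching means of 4.53 and 4.52 FPKM. These were 2 of 3 tested genes among 7, where 29.7% of all genes tested passed in WT and 46.1% in β8ITG-cKO. Nrg2, at 6.60 to 11.7 FPKM over the 12 libraries, was the third. Egf was at 0.07 to 0.38 FPKM.

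Genes of ligand shedding had small differences. Of Adam10, Adam17, Rhbdf1 and Rhbdf2, the last pair encode the iRhom partners of ADAM17. Rhbdf1 rose in WT by 0.75 and in β8ITG-cKO by 0.46, and Rhbdf2 fell in WT by 0.70, so 2 of 4 passed in WT and 1 of 4 in β8ITG-cKO, against 29.7% and 46.1% of all genes. In WT 0 passed without replicate 1 of 0 h and 1 without replicate 2 of 24 h, and in β8ITG-cKO 0 passed in 4 of 6 fits that each left out 1 library. Of 10 further inhibitors or turnover factors of the receptors, 2 rose in WT, Socs5 by 1.38 and Usp8 by 0.67, and 4 in β8ITG-cKO, among them Socs5 by 1.30 and the phosphatase genes Ptpn1 by 1.25 and Ptpn2 by 1.04. Among all genes tested, 20.9% rose in WT and 35.4% in β8ITG-cKO, near the shares of this list. The median differences of the 10 factors were 0.27 and 0.21, near those of all genes (0.16 and 0.23).

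The RAS and ERK kinase genes themselves showed small differences. Of 15 tested, 6 passed in WT (5 higher, led by Map2k1 at 0.88, and Gab1 lower by -0.42) and 4 in β8ITG-cKO (Map2k1 at 0.56 and Nras at 0.49 higher, 2 lower), where 29.7% and 46.1% of all genes passed. The medians were 0.08 and 0.10. The numbers were 2 to 6 and 2 to 4 when 1 library was left out in turn, lowest without replicate 1 of WT 0 h and without replicate 2 of β8ITG-cKO 24 h. Of 17 genes that ERK signaling is known to induce, 12 rose in WT and 15 in β8ITG-cKO, and none passed as lower. Of all genes tested, 20.9% and 35.4% were higher. Plaur and Spry4, and in β8ITG-cKO also Fosl1, reached the filter only through their 24 h levels, so they could stand only as higher. The medians of this list were 1.11 and 2.14, against 0.16 and 0.23 for all genes. It was chosen with earlier results of these data known, so its counts, here and below, are a description only.

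Plaur, the urokinase receptor gene, was at most at 0.46 FPKM in the 0 h libraries of either genotype and had means of 40.2 and 28.0 FPKM at 24 h. Its log2 differences were 4.92 ± 0.45 in WT and 4.61 ± 0.15 in β8ITG-cKO. Dusp6, an ERK phosphatase, rose by 1.63 in WT, and Ier3 by 3.05. In β8ITG-cKO, Fos rose by 3.24, from a mean of 1.18 to 19.6 FPKM, and Dusp5 by 4.32. Fos did not pass in WT, at -0.25 (adjusted p = 0.824), with means of 42.4 FPKM at 0 h and 34.5 FPKM at 24 h.

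At 0 h, 7 of 15 tested genes of this list were lower in β8ITG-cKO than in WT and none was higher, where 2.75% of all genes tested were lower. Fosl1 reached the filter at 0 h only through WT, so it could stand only as lower. The median of the list was -0.50 against 0.02 for all genes. The number was 3 to 7 when 1 library was left out in turn and 2 with no filter on low values. Dusp5 was at 1.63, 1.99 and 1.29 FPKM in β8ITG-cKO and 38.2, 14.5 and 20.6 FPKM in WT (-3.17 ± 0.31, adjusted p = 0.00269). Fos was at 1.08, 1.09 and 1.37 FPKM against 83.6, 29.6 and 14.02 FPKM (-3.96 ± 0.53, adjusted p = 0.00866), and Dusp4 had a difference of -1.41 ± 0.16 (adjusted p = 0.00493). Hbegf and Errfi1 were thus lower at 0 h in the same libraries in which Fos and Dusp5 were lower, and the WT 0 h libraries were themselves spread widely in Fos. The part of this list in the 0 h differences of Hbegf and Errfi1 was not tested.

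At 24 h, 0 of the 17 ERK response genes passed between the genotypes by the same limma test and 1 had an unadjusted p under 0.05, with a median of -0.24 against 0.03 for all genes. In the other 4 lists together, 0 of 33 tested genes passed between the genotypes at 0 h and 0 of 32 at 24 h, with 7 and 3 at an unadjusted p under 0.05. Of all genes tested, 6.94% passed at 0 h and 6.29% at 24 h. Counts of 0 in lists of this size therefore do not show that the genotypes were equal. Of the ERK response genes, 4 passed in the interaction, all with larger changes in β8ITG-cKO, among them Dusp4 by 1.68, Dusp5 by 2.56 and Fosl1 by 1.71, where 6.83% of all genes passed in that direction. The number was 2 to 5 when 1 library was left out in turn, lowest without replicate 3 of β8ITG-cKO 0 h or replicate 2 of β8ITG-cKO 24 h.

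**Figure D4:**
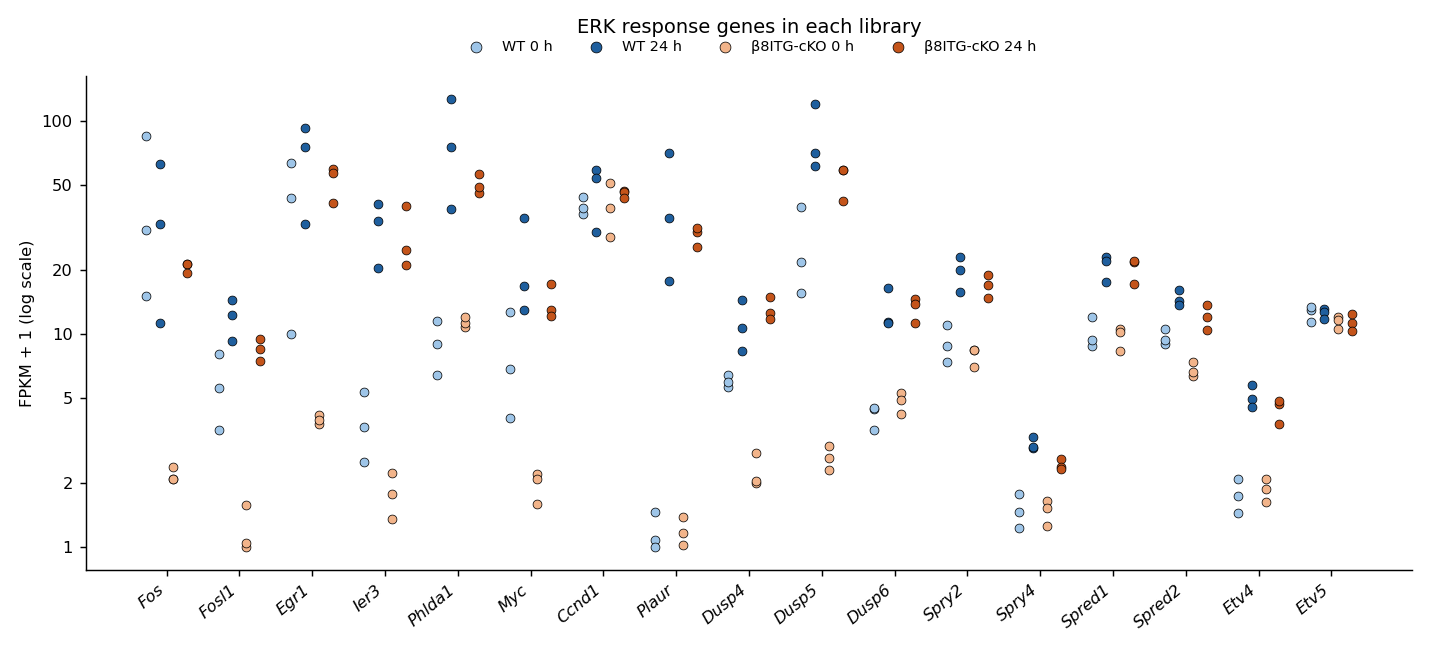
FPKM + 1 (vertical axis, log scale) of the 17 ERK response genes in each of the 12 libraries, coloured by condition. The 0 h libraries of β8ITG-cKO (light orange) lay below those of WT (light blue) for Fos, Fosl1, Egr1, Myc, Dusp4 and Dusp5, and the 24 h libraries of both genotypes overlapped for most genes.

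Ereg, Areg and Btc lie on chromosome 5 in that order, with 46.0 kb between Ereg and Areg and 208.8 kb between Areg and Btc. Areg covers chr5:91139599-91148432 on the forward strand and Btc chr5:91357261-91402994 on the reverse strand (build GRCm38). All were at 0.49 FPKM or less in every 0 h library. In replicate 3 of WT 24 h all were at 0.23 FPKM or less, while they reached 1.01 to 3.24 FPKM in the other WT 24 h libraries and 1.20 to 3.95 FPKM in the β8ITG-cKO 24 h libraries. Epgn, a further ligand gene, was at 0.09 FPKM in 1 library and at 0 in the rest.

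From the RefSeq promoter table (GRCm38.p6), 8 promoters of 7 of the 10 genes were searched. Hbegf, the highest ligand, was not among the genes searched, nor were Ereg and Erbb3, so the counts below do not cover them. The 250 bases before each start site were searched on both strands for the cyclic AMP response element (CRE), TGACGTCA. Its core TGACG, which many sites hold alone, was searched as well. The other motifs were the TATA box TATAAA, the AP-1 site TGANTCA and, by name, the CArG box and NF-kappaB. For TEAD factors the letters were GGAATG, and for the GC box GGGCGG. The core lies within the full CRE, so each full match counts under both. The full CRE occurred in 2 promoters, of Areg and of Errfi1, and in 1.55% of all 32851 promoters. TATAAA stood in the same 2, and in 12.4% of all. The core was in 4 of the 8 and in 17.8% of all, GGGCGG in 5 and 32.7%, and GGAATG in 2 and 12.6%. No match was found in the 8 for AP-1 (6.75% of all), the CArG box (1.47%) or NF-kappaB (7.25%), which says only that these letters are not in this window.

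Of the 3 promoters below, those of Areg and Errfi1 are shown because they share both elements. Btc holds only the core, and is shown as the neighbour of Areg that passed between genotypes at 24 h under some settings. Capitals mark the CRE or its core, which reads CGTCA when on the other strand, and the TATA box, and each sequence reads 5′ to 3′ on the strand of its gene up to the base before the start site.
Areg, chr5:91139349-91139598, forward strand: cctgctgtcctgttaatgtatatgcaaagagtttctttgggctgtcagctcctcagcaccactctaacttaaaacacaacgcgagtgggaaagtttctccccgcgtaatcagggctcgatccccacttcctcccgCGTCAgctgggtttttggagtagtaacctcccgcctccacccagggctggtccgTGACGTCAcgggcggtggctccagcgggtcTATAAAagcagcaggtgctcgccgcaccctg
Errfi1, chr4:150854820-150855069, forward strand: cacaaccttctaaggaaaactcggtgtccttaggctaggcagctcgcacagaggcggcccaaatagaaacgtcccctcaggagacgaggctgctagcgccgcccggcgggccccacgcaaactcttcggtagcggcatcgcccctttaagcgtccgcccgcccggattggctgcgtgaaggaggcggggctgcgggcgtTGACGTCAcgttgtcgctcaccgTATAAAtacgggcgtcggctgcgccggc
Btc, chr5:91402995-91403244, reverse strand: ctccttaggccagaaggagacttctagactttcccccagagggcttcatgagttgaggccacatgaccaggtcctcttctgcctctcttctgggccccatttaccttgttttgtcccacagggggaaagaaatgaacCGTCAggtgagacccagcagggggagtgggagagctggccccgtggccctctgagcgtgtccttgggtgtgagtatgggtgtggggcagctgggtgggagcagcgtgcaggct
In Areg the CRE lay 61 to 54 bases and the TATA box 31 to 26 bases before the start. In this promoter of Errfi1, the second of its 2 listed starts, they lay 51 to 44 and 28 to 23 bases before it, with 0 of 3 annotated Errfi1 transcripts holding all of the 50 bases after this start, against 1 of 1 for Areg. Part of the stretch is an exon of 1700045H11Rik on the opposite strand. The Btc core lay 113 to 109 bases before the start. These are matches of letters only.

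Some reads could belong to overlapping genes. By GENCODE exons, those of Ereg shared 3.42% of their length with an antisense gene and those of Lrig1 2.58% with Slc25a26. Those of Tgfa shared 1.82% and those of Erbb2 0.173% with opposite-strand genes, and those of the other 6 genes none. In the authors' annotation Egfr shared its listed locus with Gm39584, Ereg with LOC102639958, and Errfi1 with 1700045H11Rik and LOC108168715. Erbb2 likewise shared its locus with Mien1, Erbb3 with Mir6917, and Lrig1 with Slc25a26 and Mir7041. Exon overlap in that annotation was not checked. Over the 12 libraries, the genes most like Errfi1 in log2(FPKM + 1), among 7294 genes whose mean reached 5 FPKM, were Noct, Cwc22 and Tgif1 (Pearson's r 0.987, 0.954 and 0.952). For Hbegf the first pair were Mbnl2 and Khdrbs1 (0.983 and 0.979), and for Egfr the genes were Nup85, Amd1 and Ipo5 (0.976, 0.974 and 0.969). The 12 points fall into 4 conditions and share library composition, so these r describe the pattern only.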

How the data were processed

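RNA of lens capsules with attached LCs was sequenced from 12 libraries, 3 per condition, made with a stranded total RNA kit for low input. Per the submitters' processing notes, FastQC, cutadapt 1.12, TopHat2 2.1.0 and Cuffdiff 2.2.1 were used, with builds mm10 and GRCm38.p5. The authors deposited FPKM per library and gene in 4 tables, 1 per pair of conditions, which held the same values for a shared library (0 differences beyond a tolerance of 0.001). The 16 columns of group values (the authors' means and Cuffdiff values) and the authors' own fold changes, p-values and q values were not used. The strand setting of the counting is not given in the sources used here. Read totals were not used, so no precision from counting is given, and relative depths came from the steps between low values.

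Groups came from the sample labels. Each pair of conditions was fitted on its 6 libraries with limma 3.58.1 (limma-trend) in R 4.3.3 on log2(FPKM + 1), for genes whose mean reached 0.5 FPKM, with Benjamini-Hochberg adjustment over all genes tested and a threshold of 0.05. The interaction was fitted over 12 libraries. Cuffdiff, the study's test, needs reads. An exact permutation test of 3 against 3 libraries cannot go below p = 0.1 and was not used. The fits were tested on simulated data. Alternatives were pseudocounts of 0.1 and 0.01, no filter, a filter at 2 FPKM, rescaling to the same median over genes of at least 2 FPKM, a replicate block, 1 fit over 12 libraries, the study's size criteria and leaving out each library.

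The 10 genes were all named. From 5 pathway lists, at most the 3 genes of lowest adjusted p per list and comparison were named where any passed. Others were named only where their values were seen first. These were Erbb4's and Nrg1's levels, Nrg2, Egf, Epgn, Adam10, Adam17, Gab1, Spry4 and the genes named for the plot of ERK response genes. The genes most like Egfr, Hbegf and Errfi1 were ranked by Pearson's r. For Hbegf, 1 of these genes is not reported here. The members and lists were chosen with earlier results of these data known. The software otherwise was Python 3.11.15 with pandas 2.3.3, numpy 2.4.6 and, for the plots, matplotlib 3.10.9.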

Additional observations from a re-analysis of the deposited data

Results flagged for a closer look

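The changes of 3 genes over 24 h PCS differed between the genotypes by the interaction test in limma, with the change in β8ITG-cKO minus that in WT at 1.40 for Btc, -0.60 for Lrig1 and -0.60 for Erbb2 on the log2 scale. For Btc, all 3 β8ITG-cKO libraries rose above every other library, and the adjusted p of 0.0226 lay between 0.0111 and 0.0578 over the fits that each omit 1 library, passing in 9 of 12 fits. Lrig1 passed in 2 of 12 such fits, with an adjusted p of up to 0.0972, and Erbb2 in 2 of 12, with up to 0.119. The signs of the 3 values held in all 12 fits. For Erbb2 and Lrig1 the genotypes stood further apart at 0 h than at 24 h, and for Btc at 24 h.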

How the results depend on the processing

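In WT over time, 5 of 9 genes passed, against 1 by the size criteria, 2 with no filter, 3 after rescaling, 3 with the replicate block and 2 to 8 when 1 library was left out. In β8ITG-cKO over time, 8 passed, against 4 by the size criteria, 4 with a filter at 2 FPKM, where 5 were tested, and 7 to 8 with 1 library left out. Between the genotypes at 0 h, 2 passed, against 1 by the size criteria, 1 with no filter and 0 to 2 with 1 library left out. At 24 h, 1 passed, against 0 with a pseudocount of 0.1, 0 with 0.01, 0 with no filter, 0 with a filter at 2 FPKM, 0 with the replicate block and 0 to 1 with 1 library left out. In each of these fits Btc had an unadjusted p under 0.05. The interaction passed for 3, against 1 with a pseudocount of 0.01, 1 with no filter, 1 with the replicate block and 0 to 2 with 1 library left out. The cause of these shifts was not tested.

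Signs turned after rescaling for Lrig1 in WT (-0.11) and Erbb2 in β8ITG-cKO (-0.16), neither of which passed, and with 1 library left out for Erbb2 in β8ITG-cKO (-0.02 to 0.16). Between the genotypes at 24 h, leaving out 1 library gave -0.05 to 0.39 for Egfr, -0.41 to 0.05 for Hbegf, -0.10 to 0.68 for Areg and -0.42 to 0.53 for Ereg. In the interaction it gave -0.21 to 0.24 for Egfr, -0.07 to 0.71 for Areg, -0.37 to 0.58 for Ereg and -0.10 to 0.59 for Errfi1.

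Replicate numbers did not pair the libraries. Deviations from group means of the 12 same-numbered pairs had correlations of -0.25 to 0.10, with 0 pairs above 0.1. With 3 libraries a condition and no read counts, levels under about 0.5 FPKM, as for Erbb3, could not be compared.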
